A study of Homo sapiens with 3 samples.

Results

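The 7 genes described here, RB1, RBL1, RBL2, CUL7, FBXW7, EP300 and CREBBP, encode host proteins known to be bound by, or drawn into complexes with, the large T antigen of SV40. They were taken by symbol from a table of 185299 transcripts, whose TPM (abundance per length, scaled to a fixed total in each library) was summed over each of 35880 gene symbols. HEK293T, an established line derived from human embryonic kidney, makes large T and, like its HEK293 parent, carries the adenovirus E1A and E1B genes. The 3 libraries, labelled as biological replicates 1, 2 and 3 of untreated cells grown in high-glucose medium with fetal bovine serum, formed a single group. Oligo-dT captured RNA was sequenced. No library without large T was analysed here, so no level can be set against cells that lack the viral protein. Since no label ties the replicates to separate cultures, p-values rest on the spread among 3 libraries alone, and that spread may be technical.

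Large T pushes infected or transformed cells into DNA replication by binding host proteins. A short peptide motif of large T docks on the pocket domain shared by RB1, RBL1 (p107) and RBL2 (p130), and its J domain recruits a host chaperone that helps to release E2F transcription factors from them. CUL7, a cullin scaffold for ubiquitin ligases, and FBXW7, the substrate receptor of an SCF ubiquitin ligase that marks cyclin E and MYC for destruction, are bound at other sites. The paralogous acetyltransferases EP300 (p300) and CREBBP (CBP) join large T complexes, in part through p53. E1A also binds the pocket proteins and p300 and CBP.

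All 7 genes were expressed at moderate levels, from 11.0 ± 0.809 TPM for CUL7 to 34.7 ± 7.12 TPM for CREBBP (SD, n = 3), and each lay above 1 TPM. Their median was 21.9 TPM, against 10.8 TPM over the 17225 protein-coding symbols above 0 in at least 1 library. Of all 21990 symbols above 0, 58.5% were called above 1 TPM, and of the protein-coding ones 70.7%, and the 7 of 7 is read against those shares. Above 10 TPM, 6 of the 7 were called, against 39.7% of all symbols and 49.6% of protein-coding symbols, and CUL7 was undecided. None was called below 10 TPM, as 57.1% of all symbols and 46.9% of protein-coding symbols were, or below 1 TPM, as 23.7% of protein-coding symbols were. Less RNA per cell and fewer cells with the RNA cannot be told apart in bulk samples. Calls set log2(TPM + 0.01) against the log2 of the level with limma, and p-values were adjusted over all symbols above 0 by the Benjamini-Hochberg method. Differences are on that log2 scale, which understates those of low genes.

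The labelled line was checked against marker genes. All 9 genes known from HEK293 lines lay above 1 TPM, as did 70.7% of protein-coding symbols, with summed levels of 698 to 714 TPM per library. Most of each sum came from VIM, the highest of the 9, at 393.0 to 410.2 TPM. Above 10 TPM 7 of the 9 were called, against 49.6% of protein-coding symbols, and 2 were called below. PAX2 was lowest at 1.57 ± 0.0836 TPM. Among blood markers, CD3E was listed at 0, PTPRC had 0.320 ± 0.136 TPM and SPI1 had 0.151 ± 0.117 TPM. Markers of endothelium summed to 0.200 to 0.414 TPM and those of fibroblasts to 0.328 to 0.446 TPM. The deposited estimated counts, which match the TPM of replicate 1, gave the 7 genes between 994 (FBXW7) and 5601 (EP300) counts.

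**Figure D1:**
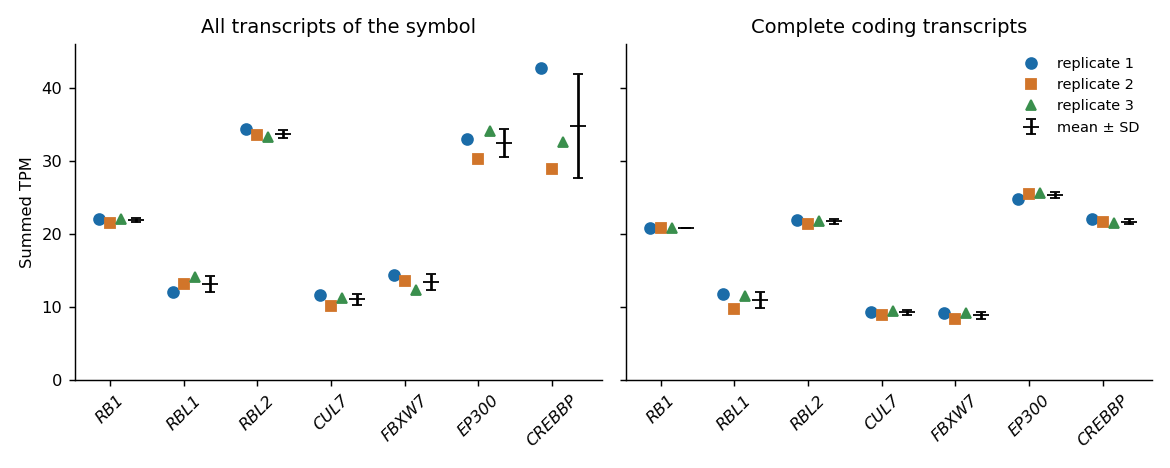
Summed TPM (vertical axis) of the 7 genes in replicates 1, 2 and 3, with the mean and SD beside them, over all transcripts of a symbol (left) and over complete coding transcripts only (right). CREBBP spreads between 28.9 and 42.6 TPM on the left and between 21.4 and 22.1 TPM on the right.

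RB1 encodes the retinoblastoma protein, which restrains entry into S phase (ENSG00000139687.15, chromosome 13, 48303726 to 48599436, plus strand, hg38), and had the smallest coefficient of variation of the 7 genes, 1.39%. RBL2 followed at 1.69%. Both values lay below the counting error of the genes' total estimated counts, which gives short entries no extra weight as TPM does. RB1 had 22.1, 21.5 and 22.1 TPM in replicates 1, 2 and 3, which is 4.44 ± 0.0257 above 1 TPM on the log2 scale (SE, limma adjusted p = 1.49e-08). The 3 values lay within 1 TPM of each other, and 63.4% of protein-coding symbols above 0 were lower. Nearly all of it came from RB1-201, the 928-codon form of 27 exons, which had 20.6, 20.8 and 20.8 TPM and 94.8% ± 1.53 of the gene's TPM. The retained-intron entry RB1-204 held 4.65% ± 1.58. None of the 6454 distinct 31-base words of its transcripts occurred in another symbol, and LPAR6, which lies within RB1 on the opposite strand, had 0.0975 ± 0.0437 TPM. RCBTB2, which also overlaps RB1 on the opposite strand, had 1.76 ± 0.0311 TPM.

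RBL2, the p130 protein that pairs with E2F4 in resting cells, was higher than RB1 when all transcripts were summed (ENSG00000103479.15, chromosome 16, 53433977 to 53491649, plus strand). Its sums were 34.3, 33.6 and 33.2 TPM, which is 5.06 ± 0.0225 above 1 TPM on the log2 scale (SE, limma adjusted p = 6.91e-09). Every RBL2 value exceeded every RB1 value, at 1.56, 1.56 and 1.51 times RB1 in the 3 libraries. The 4906-base coding transcript RBL2-201 (1139 codons), however, had only 22.0, 21.4 and 21.8 TPM, or 64.4% ± 0.979 of the sum. Most of the remainder lay in a pair of short retained-intron entries, RBL2-205 (738 bases; 5.13, 5.10 and 5.33 TPM) and RBL2-206 (745 bases; 6.12, 5.50 and 3.82 TPM). Over transcripts with a complete coding sequence, an alternative chosen after seeing the data, RBL2 was 1.05, 1.03 and 1.05 times RB1, still higher in 3 of 3 libraries. AKTIP, which overlaps RBL2 on the opposite strand, had 20.5 ± 0.560 TPM, and the strand setting of the quantification was not given in the sources used here.

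RBL1, the p107 protein, which is most abundant in cycling cells, was the lowest of the pocket protein genes (ENSG00000080839.11, chromosome 20, 36996349 to 37095995, minus strand). It had 12.03, 13.2 and 14.1 TPM, which is 3.70 ± 0.0558 above 1 TPM on the log2 scale (SE, limma adjusted p = 4.4e-07). It stayed below both relatives in 3 of 3 libraries, at 0.545, 0.612 and 0.641 times RB1. Of the summed TPM of the family, RBL2 held 49.1% ± 1.16, RB1 31.9% ± 0.361 and RBL1 19.1% ± 1.40. Over complete coding transcripts the shares were 40.6% ± 0.521 for RBL2, 38.9% ± 0.949 for RB1 and 20.5% ± 1.47 for RBL1. RBL1 thus had the smallest share either way, and the gap between RBL2 and RB1 was narrower over complete coding transcripts.

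The RBL1 sum hid an uneven split between its transcripts. The 1068-codon form RBL1-202 was steady at 8.82, 9.05 and 8.37 TPM. The 1014-codon form RBL1-201, which lacks the last exon of RBL1-202, had 2.90, 0.711 and 3.07 TPM and was low in replicate 2 only. RBL1-204, a 599-base entry annotated for nonsense-mediated decay, had 0, 2.48 and 2.34 TPM and was listed at 0 in replicate 1. Over complete coding transcripts RBL1 had 11.7, 9.76 and 11.4 TPM, and its lowest library was then replicate 2 and not replicate 1.

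EP300 and CREBBP, which acetylate histones and transcription factors, were close to each other, and their order depended on which transcripts were summed. EP300 (ENSG00000100393.12, chromosome 22, 41091786 to 41180079, plus strand) had 33.04, 30.3 and 34.0 TPM, which is 5.004 ± 0.0407 above 1 TPM (log2, SE, limma adjusted p = 4.57e-08). CREBBP (ENSG00000005339.14, chromosome 16, 3725054 to 3880726, minus strand) had 42.6, 28.9 and 32.6 TPM, which is 5.08 ± 0.116 above 1 TPM (log2, SE, limma adjusted p = 2.23e-06). The ranges overlapped. EP300 was 0.775 times CREBBP in replicate 1 but 1.05 and 1.04 times in replicates 2 and 3.

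Part of the high CREBBP value of replicate 1 lay in 100-base entries of the annotation. Of 5 CREBBP entries of that length, 3 were above 0 in some library, and they are shown because single counts in them weigh heavily in the gene total. Each joins 2 exon pieces, and the capitals mark the bases after the junction (GENCODE release 29, hg38, minus strand, chr16:3782890-3791255 for CREBBP-214, chr16:3810720-3812977 for CREBBP-215 and chr16:3730512-3731250 for CREBBP-219).
CREBBP-214: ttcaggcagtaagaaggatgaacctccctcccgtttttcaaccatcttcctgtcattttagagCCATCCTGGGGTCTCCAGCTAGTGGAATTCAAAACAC
CREBBP-215: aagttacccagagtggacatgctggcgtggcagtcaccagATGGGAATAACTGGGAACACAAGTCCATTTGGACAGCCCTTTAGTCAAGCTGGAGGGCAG
CREBBP-219: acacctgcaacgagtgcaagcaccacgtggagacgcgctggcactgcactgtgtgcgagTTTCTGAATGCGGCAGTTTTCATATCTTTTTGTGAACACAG
Each held 1 estimated count in the deposited column, which matched replicate 1, and each was listed there at 2.86 TPM. An exact Poisson 95% interval for 1 count, which covers counting error only, spans 0.0723 to 15.9 TPM for such an entry. Together the 3 counts were 0.0602% of CREBBP's estimated counts but 8.57 of its 42.6 TPM. In replicates 2 and 3 the 100-base entries summed to 0 and 2.94 TPM. Without them CREBBP had 34.1, 28.9 and 29.6 TPM, and replicate 1 was still the highest. Of the 70 words of 31 bases in each, 9, 32 and 29 also occur in CREBBP-201 or CREBBP-202, for CREBBP-214, CREBBP-215 and CREBBP-219 in that order, and 0 occur in other symbols.

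Counted over complete coding transcripts, EP300 was the higher of the pair in 3 of 3 libraries. EP300-201, a 9587-base transcript of 2414 codons, had 24.8, 25.5 and 25.7 TPM, against 22.1, 21.6 and 21.4 TPM for the sum of CREBBP-201 and CREBBP-202, and the ranges did not overlap. The ratio was 1.12, 1.18 and 1.20. Over transcripts of at least 1000 bases, also chosen after seeing the data, it was 1.003, 1.07 and 1.05, with 25.3, 26.1 and 26.0 TPM for EP300 against 25.2, 24.4 and 24.8 TPM for CREBBP, and the ranges did not overlap either. Over all protein-coding transcripts EP300 had 26.1, 26.6 and 29.9 TPM and CREBBP 31.5, 26.3 and 27.4 TPM, and CREBBP had the higher mean. The next most abundant EP300 entry by its mean, the 613-base retained-intron entry EP300-207, had 3.47, 3.12 and 2.82 TPM, and in replicate 3 EP300-204 was higher at 3.37 TPM. The ratios between genes are given as a description, without a test; an exact sign-flip test of 3 libraries cannot give a p below 0.25.

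**Figure D2:**
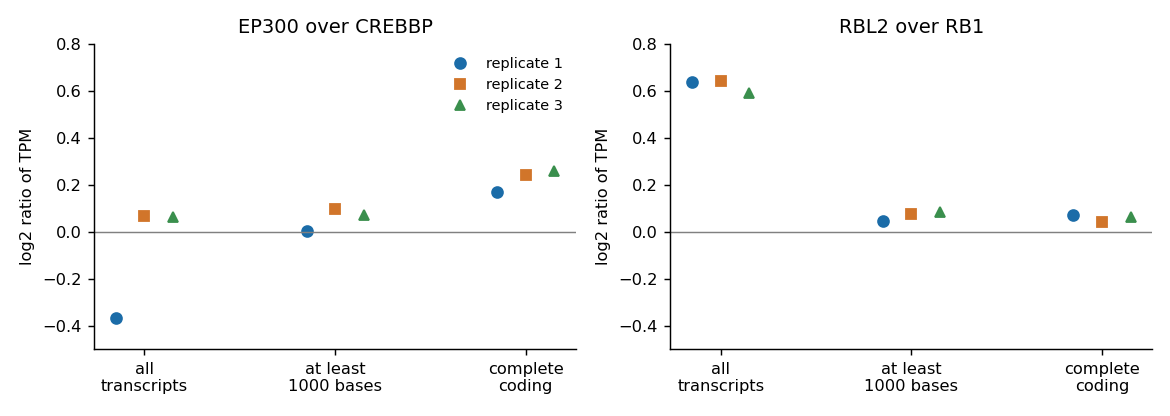
The log2 ratio of TPM (vertical axis) of EP300 over CREBBP (left) and of RBL2 over RB1 (right) in replicates 1, 2 and 3, for 3 ways of summing transcripts. The first ratio is -0.37 in replicate 1 over all transcripts and 0.17 to 0.26 over complete coding ones, and the second averages 0.62 over all transcripts and 0.06 over complete coding ones.

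CREBBP was split between a pair of long transcripts that differ by a coding exon. CREBBP-202 (7598 bases, 2404 codons) had 11.8, 11.6 and 10.4 TPM and CREBBP-201 (10803 bases, 2442 codons) 10.3, 9.93 and 11.0 TPM. CREBBP-202 was therefore the more abundant in replicates 1 and 2 and CREBBP-201 in replicate 3, and the share of CREBBP-202 in the pair was 52.0% ± 2.90. CREBBP was the single gene of the 7 whose main transcript was not the same in every library. Exon 5 of CREBBP-201, 114 bases or 38 codons within the region encoding the TAZ1 zinc finger, is missing from CREBBP-202. It is shown in capitals between 20 bases of each neighbouring exon (capitals at chr16:3791981-3792094, hg38, minus strand).
CREBBP-201: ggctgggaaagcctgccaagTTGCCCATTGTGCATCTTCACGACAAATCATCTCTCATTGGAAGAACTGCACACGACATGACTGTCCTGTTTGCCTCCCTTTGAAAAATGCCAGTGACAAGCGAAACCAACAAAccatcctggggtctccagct
The transcripts also differ in their ends, so the split does not measure this exon alone.

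CUL7, which assembles a ligase with FBXW8 and is mutated in the growth disorder 3-M syndrome, was the lowest gene by the full sum (ENSG00000044090.8, chromosome 6, 43037617 to 43053945, minus strand). It had 11.7, 10.1 and 11.3 TPM, which is 3.45 ± 0.0549 above 1 TPM on the log2 scale (SE, limma adjusted p = 5.39e-07). Against 10 TPM it was undecided, at 0.14 ± 0.0549 on the log2 scale (limma adjusted p = 0.0654). Its 749-base non-coding entry CUL7-202 held 16.1% ± 4.17 of the sum, and over complete coding transcripts, where CUL7 had 9.30, 8.89 and 9.50 TPM, it was called below 10 TPM (-0.12 on the log2 scale, limma adjusted p = 0.0233). KLC4, on the opposite strand, overlaps CUL7 and had 23.1 ± 1.36 TPM. Of the 5636 words of 31 bases in CUL7, 2.18% also occur elsewhere, in its closest relative CUL9.

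Both coding transcripts of CUL7 were present in each library. CUL7-201 (1698 codons) had 5.58, 5.36 and 6.26 TPM and CUL7-203 (1782 codons) 3.71, 3.53 and 3.24 TPM, a share of 37.9% ± 3.34 for the longer protein form. They begin translation in different exons. The first 60 coding bases of each show the separate starts, with the start codon in capitals (hg38, minus strand, chr6:43053799-43053858 for CUL7-203 and chr6:43052729-43052788 for CUL7-201).
CUL7-203: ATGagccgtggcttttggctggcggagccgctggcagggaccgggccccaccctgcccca
CUL7-201: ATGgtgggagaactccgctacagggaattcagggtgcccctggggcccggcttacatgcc

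FBXW7, whose protein selects phosphorylated substrates for the SCF ligase, was spread over many transcripts (ENSG00000109670.14, chromosome 4, 152320544 to 152536063, minus strand). It had 14.4, 13.5 and 12.3 TPM, which is 3.73 ± 0.0548 above 1 TPM on the log2 scale (SE, limma adjusted p = 3.98e-07). Of its 17 entries 15 were above 0 in some library, as many as for CREBBP, and the main one, FBXW7-202, held 36.1% ± 6.62. FBXW7-213, a 671-base entry with an incomplete coding sequence, held 12.8% ± 5.50. Over complete coding transcripts FBXW7 had 9.14, 8.29 and 9.16 TPM and was called below 10 TPM (-0.18 on the log2 scale, limma adjusted p = 0.0114), whereas the full sum was called above it (0.42 ± 0.0548, limma adjusted p = 0.00152). FBXW7 and RBL1 overlapped over all transcripts, and over complete coding ones RBL1 was higher in 3 of 3 libraries.

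FBXW7 makes proteins with different first coding exons that are known to direct them to different places in the cell. The annotation gives 3 coding starts, and their first 60 coding bases are shown because they tell the forms apart, with the start codon in capitals (hg38, minus strand, chr4:152411744-152411803, chr4:152352671-152352730 and chr4:152382276-152382335 in the order shown).
FBXW7-202: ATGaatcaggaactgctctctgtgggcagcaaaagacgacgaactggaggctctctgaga
FBXW7-204: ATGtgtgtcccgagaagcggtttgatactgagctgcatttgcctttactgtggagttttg
FBXW7-203: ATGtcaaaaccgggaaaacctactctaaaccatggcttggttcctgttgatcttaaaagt
The start of the 707-codon form, used by FBXW7-202 and 3 other complete transcripts, had 7.08, 6.61 and 7.99 TPM, or 81.5% ± 5.09 of complete coding TPM. Among these, FBXW7-212 has only 176 codons and had 0.527, 0 and 0.226 TPM. All 8 entries with this start, incomplete coding sequences included, summed to 10.7, 9.09 and 9.78 TPM. The start of the 627-codon form had 1.93, 1.45 and 1.03 TPM (16.6% ± 4.96), all from FBXW7-204. The start of the 589-codon form had 0.137, 0.229 and 0.144 TPM (1.95% ± 0.713), and 10.98 estimated counts stood behind it in the deposited column. The order of the 3 starts was the same in every library and their ranges did not overlap.

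**Figure D3:**
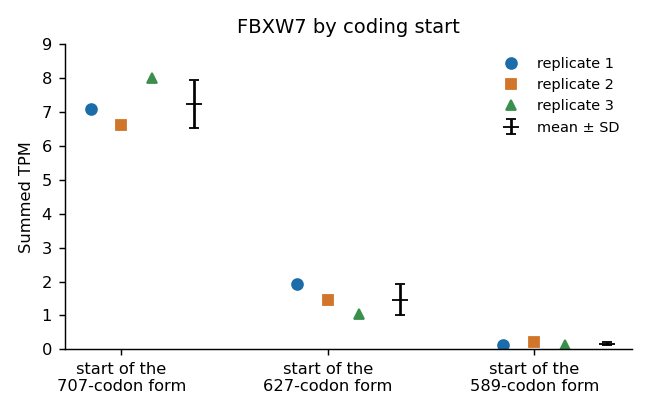
Summed TPM (vertical axis) of complete FBXW7 coding transcripts by the start codon they share, in replicates 1, 2 and 3, with the mean and SD. The start of the 707-codon form lies between 6.61 and 7.99 TPM, above the other starts in each library.

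In replicate 1, which the estimated counts match, complete coding transcripts held a smaller share of the TPM than of the counts in each of the 7 genes. That direction follows from the scaling, since TPM divides counts by effective length and complete coding transcripts were mostly the longest entries. The gap was widest for CREBBP, with 51.7% of the TPM and 93.4% of the counts, and small for RBL1, with 97.4% of the TPM and 99.7% of the counts. Over the 3 libraries their mean share of TPM was 95.1% ± 1.18 for RB1, 84.1% ± 11.97 for RBL1, 83.9% ± 4.17 for CUL7, 78.2% ± 5.24 for EP300, 66.4% ± 6.998 for FBXW7, 64.4% ± 0.979 for RBL2 and 64.1% ± 11.6 for CREBBP. The median over 8259 protein-coding symbols of at least 10 TPM, those with every transcript above 0 matched to the annotation, was 77.2% (quartiles 56.8% and 92.7%). Retained-intron entries alone made up 34.2% of RBL2's TPM in replicate 1 but 5.54% of its estimated counts.

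**Figure D4:**
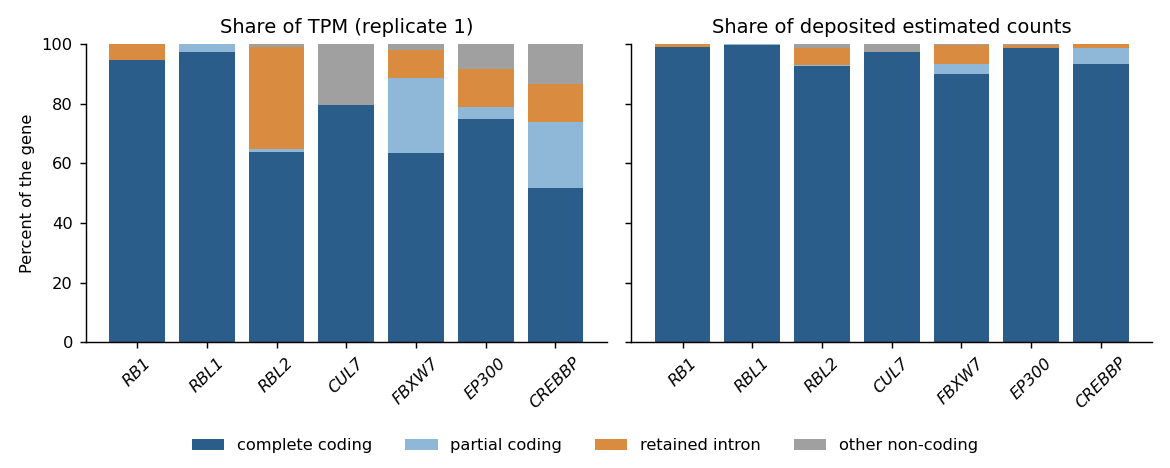
Percent of each gene (vertical axis) in complete coding, partial coding, retained-intron and other non-coding transcripts, as the share of TPM in replicate 1 (left) and of the deposited estimated counts, which match that replicate (right). RBL2 has 63.9% of its TPM and 92.6% of its estimated counts in complete coding transcripts.

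The order of the genes depended on which transcripts were counted. By full sums it was CREBBP, RBL2, EP300, RB1, FBXW7, RBL1 and CUL7. The ranges of CREBBP and RBL2, of RBL2 and EP300, and of FBXW7 and RBL1 overlapped, while those of EP300 and RB1, RB1 and FBXW7, and RBL1 and CUL7 did not. By complete coding transcripts it was EP300 (25.3 ± 0.466 TPM), RBL2 (21.7 ± 0.294), CREBBP (21.7 ± 0.328), RB1 (20.8 ± 0.0447), RBL1 (10.97 ± 1.06), CUL7 (9.23 ± 0.308) and FBXW7 (8.86 ± 0.499), all in TPM. In this second order the ranges of RBL2 and CREBBP overlapped, with CREBBP higher in 2 of 3 libraries. The ranges of CUL7 and FBXW7 overlapped too. Of the 7, RBL1 shared the largest part of its 31-base words with other symbols, 3.23%. No word was shared among the pocket protein genes or between EP300 and CREBBP. In both orders EP300, CREBBP, RBL2 and RB1 stood above RBL1, CUL7 and FBXW7 in every library.

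None of the 7 had a larger variance than limma's trend by its F-test after adjustment, as for all 13475 symbols of at least 1 TPM (0% called). Because no symbol was called with 3 libraries, the adjusted test cannot tell steady genes from variable ones here. Without adjustment 1 of the 7 passed the 0.05 level, CREBBP (SD of log2 0.29 against a trend of 0.0547, limma adjusted p = 0.964), beside 4.11% of those symbols. Over complete coding transcripts the CREBBP coefficient of variation was 1.51%, against 20.5% over all its transcripts. RB1 and RBL2 had coefficients of variation of 1.39% and 1.69%. The counting error of their totals of 2272 and 2642 estimated counts was 2.10% and 1.95%. That error is of total counts and not of summed TPM, in which a count in a short entry weighs more.

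The 7 genes had a median of 21.9 TPM, against 43.9 TPM for 12 other host genes whose products large T is known to contact. Of the 12, 11 lay above 1 TPM, 1 below, and 10 above 10 TPM. Above 1 TPM were 58.5% of all symbols and 70.7% of protein-coding symbols, and above 10 TPM 39.7% and 49.6%. HSPA8, the chaperone recruited by the J domain, was highest at 1926, 1860 and 1924 TPM. The checkpoint kinase gene BUB1 had 63.8 ± 0.480 TPM. IRS1, the insulin receptor substrate, had 3.34, 3.21 and 3.06 TPM, above 1 TPM but below 10 TPM. FAM111A, which encodes the protease that restricts SV40 host-range mutants, was lowest at 0.0261, 0.0511 and 0.0475 TPM and was called below 1 TPM (limma adjusted p = 0.001), as were 33.9% of all symbols and 23.7% of protein-coding symbols.

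Genes that act with the pocket proteins were all called above 10 TPM, as were 39.7% of all symbols and 49.6% of protein-coding symbols. Of 13 E2F, DP and MuvB genes, 13 lay above 10 TPM, from E2F2 at 11.0 ± 0.559 TPM to the histone-binding RBBP4 at 386 ± 5.24 TPM, with a median of 34.5 TPM. E2F4, the main partner of p130, had 82.0, 79.0 and 76.5 TPM. Of the 9 cyclin and kinase genes that phosphorylate pocket proteins, 9 lay above 10 TPM, from the D cyclin CCND1 at 13.1 ± 1.73 TPM to its kinase CDK4 at 283 ± 4.74 TPM.

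Of 5 genes of the CUL7 ligase and 3M complex, 5 lay above 1 TPM by full sums, against 58.5% of all symbols and 70.7% of protein-coding symbols. They ranged from FBXW8 at 8.92 ± 0.241 TPM to the adaptor SKP1 at 251 ± 2.07 TPM, and the 3M partners OBSL1 and CCDC8 had 72.7 ± 1.04 and 33.4 ± 0.276 TPM. Over protein-coding or complete coding transcripts 4 of the 5 were called, since CCDC8 did not enter those fits. Of 11 subunits and substrates of the FBXW7 ligase, 10 lay above 1 TPM and MYCN, a MYC relative and substrate, lay below (0.264, 0.173 and 0.366 TPM, limma adjusted p = 0.0044). The substrates MYC and cyclin E1 (CCNE1) had 113 ± 1.86 and 32.0 ± 1.33 TPM. Among 7 other cullins, all above 1 TPM, CUL1 was highest at 92.4 ± 0.489 TPM and CUL9 lowest at 9.84 ± 1.66 TPM, and all but CUL9 had a higher mean than CUL7. Of 9 other FBXW genes, 7 lay above 1 TPM, led by FBXW5 at 61.7 ± 3.61 TPM, FBXW10 was undecided at 1.08 ± 0.0947 TPM and FBXW12 lay below at 0.466 ± 0.0600 TPM. The counts above 1 TPM in each of these lists are read against the same 58.5% of all symbols and 70.7% of protein-coding symbols. The 7 of 9 FBXW genes lie close to the protein-coding share. Below 1 TPM were 33.9% of all symbols and 23.7% of protein-coding symbols.

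Of 10 partners of p300 and CBP, 10 lay above 1 TPM and 9 above 10 TPM by full sums. The shares were 58.5% and 39.7% of all symbols, and 70.7% and 49.6% of protein-coding symbols. Over protein-coding or complete coding transcripts 9 of the 10 were called above 1 TPM, since MAML1 did not enter those fits. The acetyltransferase KAT2A was highest at 74.5 ± 2.44 TPM and its paralog KAT2B lowest at 7.71 ± 0.833 TPM. CITED2, which binds the TAZ1 zinc finger of p300 and CBP, had 33.3 ± 1.63 TPM, and its relative CITED1 had 39.1 ± 2.17 TPM.

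**Figure D5:**
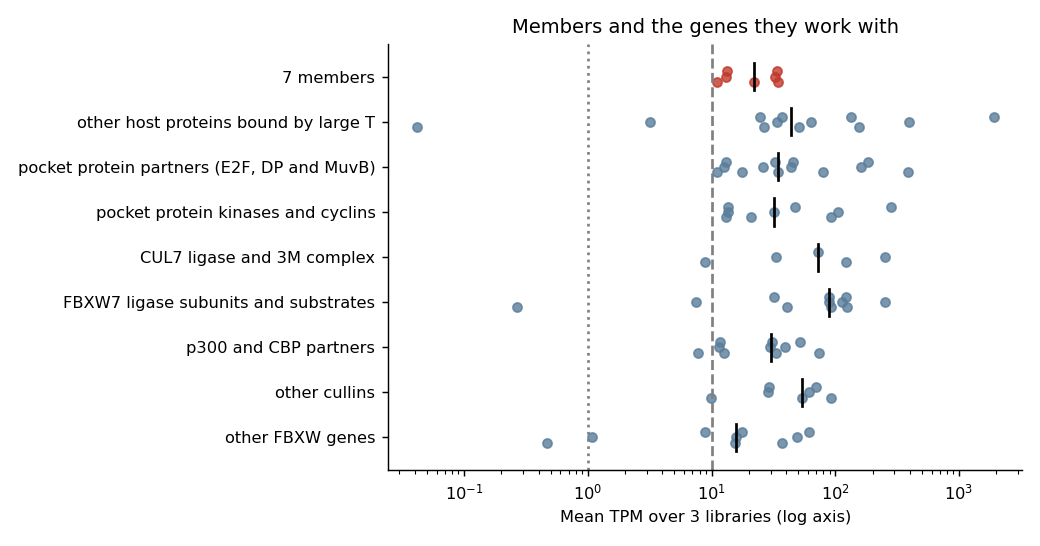
Mean TPM over the 3 libraries (horizontal log axis) of the 7 genes (top) and of the genes in 8 lists, each dot a gene and each bar the list's median, with lines at 1 and 10 TPM. The 7 genes lie between 11.0 and 34.7 TPM, and FAM111A is the lowest dot at 0.0416 TPM.

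The protein-coding symbol nearest in level to each gene, by the mean absolute log2 difference over 3 libraries, was DDAH1 for RB1 (0.00879), SKIL for RBL1 (0.0124), STX5 for RBL2 (0.00859), FYCO1 for CUL7 (0.0137), NXPH4 for FBXW7 (0.0177) and GPALPP1 for EP300 (0.00936). For CREBBP it was AC087632.1 at 0.0829, the widest gap of the 7. With 3 libraries of 1 group this likeness is one of level only.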

How the data were processed

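Directional libraries were prepared from Trizol-extracted, oligo-dT captured RNA, per the labels' protocols. Per the submitters' processing notes, the authors used kallisto and hg38; the version, options and transcripts are not given in the sources used here. In these files the deposited TPM was scaled per transcript within each library, and the deposited estimated counts name no library but match replicate 1. The table thus gave no counts per library, so the limma test planned for TPM (limma 3.58.1, R 4.3.3) was used and not the edgeR test planned for counts.

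TPM was summed over transcripts of a symbol. Levels were tested by limma with a mean-variance trend (pseudocount 0.01), and spread by an F-test against its prior over symbols of at least 1 TPM. Of transcripts, 90.1% matched GENCODE release 29 by identifier, all 72 of the 7 genes among them. Complete coding transcripts were protein-coding without an incomplete-end tag. TPM gives no depth per library, and short entries turn single reads into large TPM. Members and lists were chosen with earlier results of these data known. Methods were tested on simulated data. For levels and spread these held random noise for each gene and did not mimic single counts in short entries. A blood marker is not reported here. Genes were named by fixed rules: the members, each one's nearest symbol, and of each list the highest, the lowest and those not above 1 TPM. BUB1, IRS1, E2F4, OBSL1, CCDC8, MYC, CCNE1, CITED1 and CITED2 were added after their values were seen. The complete coding and 1000-base sets were chosen after seeing the data. Alternatives were other pseudocounts, a filter of 0.1 TPM, TMM (edgeR 4.0.16) and median-of-ratios scaling, rescaling without mitochondrially encoded genes, other transcript sets and leaving out each replicate.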

Additional observations from a re-analysis of the deposited data

How the results depend on the processing

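All 7 genes stayed above 1 TPM under every alternative. The number above 10 TPM was 6, but 4 over complete coding transcripts or those of at least 1000 bases. It was 7 without replicate 2 or when rescaled without mitochondrially encoded genes. The shares of 39.7% of all symbols and 49.6% of protein-coding symbols belong to the full sums and are not given for the alternatives. The changed counts are therefore not read as a trait of the 7 genes. CUL7's log2 difference from 10 TPM turned to -0.12 over complete coding, protein-coding and at least 1000-base transcripts, and was called above without replicate 2 (0.20, limma adjusted p = 0.0279) and without mitochondrially encoded genes (0.24, limma adjusted p = 0.0116). For FBXW7 it turned to -0.18 over complete coding transcripts and -0.11 over those of at least 1000 bases. RBL1's call above 10 TPM ended in both (limma adjusted p = 0.0895 and 0.0781). The log2 ratio of EP300 over CREBBP, -0.08, turned to 0.22 over complete coding transcripts and 0.058 over those of at least 1000 bases. Over protein-coding transcripts it stayed negative at -0.044. Leaving out a replicate gave -0.15 to 0.065, the positive value without replicate 1. RBL2 over RB1, 0.62, was 0.059, 0.070 and 0.088 over complete coding, at least 1000-base and protein-coding transcripts. RBL1 over RBL2, -1.36, was -0.99, -1.07 and -0.94 there, and RBL1 over RB1, -0.74, was -0.93 and -0.996 over complete coding and at least 1000-base transcripts. Of 21 pairs of genes, 16 kept the order of the full sums over complete coding transcripts and 18 without replicate 1. Counts above 1 TPM were 4 of 5 for the CUL7 ligase and 9 of 10 for p300 and CBP partners over protein-coding and complete coding transcripts, where CCDC8 and MAML1 had no matched coding transcript above 0. FAM111A fell out of the test under the filter of 0.1 TPM, and the FBXW genes below 1 TPM numbered 2 in the 3 other transcript sets. No paired analysis was possible because the libraries form 1 group. Single-count entries limit sums of genes with many short transcripts.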
